A study of Xenopus laevis with 32 samples.

Results

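The response of amputated Xenopus laevis tails within 0.5 h was examined in the period of development that the labels call regeneration, as opposed to a refractory period. The comparison set 3 libraries of tails collected 0.5 h after amputation (replicates B, C and D) against 3 libraries collected at 0 h, that is at amputation (replicates B, C and D), 6 of the 32 libraries of the study. These 6 were taken because the authors' normalized table keeps them and leaves out replicate A of both times. All groups carried the same treatment, amputation, and the labels name no strain, genotype, transgene or agent for any of them. Per the labels, each library came from total RNA pooled from 20 embryos, and the extraction text, identical for all 32 samples, gives the stage as regenerative with no number, also for the samples labelled refractory. The study also holds regeneration tails at 6 and 72 h and tails of the refractory period at the same 4 times. No group held uncut tails kept for 0.5 h, so the effect of amputation and that of the elapsed time cannot be told apart.

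Immediate early genes are genes whose transcription starts within minutes of a stimulus without the need for new protein, because the factors that switch them on, such as serum response factor and CREB, are already present and are activated by kinases. Many encode transcription factors, among them Fos and Jun proteins, which pair as the factor AP-1, and the zinc finger factors of the Egr and Klf families. Others encode phosphatases and mRNA decay factors that end the response. In wounded epithelia and regenerating appendages these genes are among the earliest known to respond. Roles of single genes are given below as known from vertebrate cells, mostly mammalian.

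Within 0.5 h the tails held more transcripts of the early genes fos, fosb, jun, junb, egr1, klf2, ier2 and others. Of 21458 genes tested, 28 were called, that is 0.130% (edgeR's quasi-likelihood test, Benjamini-Hochberg adjusted p under 0.05). Higher at 0.5 h were 27 genes, 0.126% of those tested, and lower was 1 gene, 0.00466%. All 27 higher genes lay above 0 h in each of the 3 libraries, with no overlap between the groups. Such a separation by itself was common: it was seen upward in 1048 genes (4.88%) and downward in 1176 genes (5.48%). Of the 27 genes, 17 rose by a log2 change of at least 1 and 10 by less. In a fit of all 32 libraries, which adds the 5 that the authors left out, replicates A of both times among them, 13 genes were called and 17 of the 28 calls were lost. All 27 higher genes are members of the early response lists used below, but these lists were chosen with earlier results known, so this membership is no finding. The median log2 change of all genes tested was -0.0025.

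**Figure D1:**
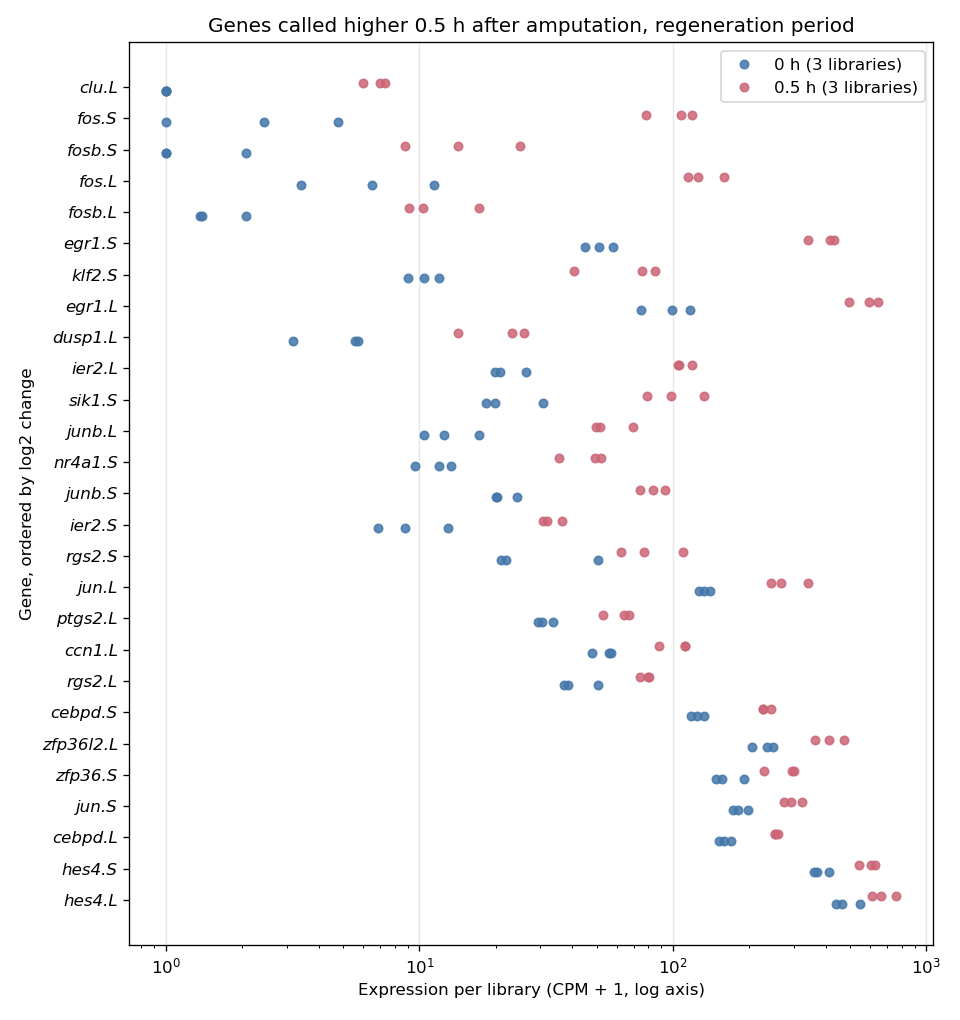
Expression of the 27 genes called higher, as CPM plus 1 on a log axis, in each of the 3 libraries at 0 h (blue) and the 3 at 0.5 h (red), 1 row per gene ordered by log2 change. In every row all red points lie to the right of all blue points; clu.L has no counts at 0 h.

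Depth was alike in the 6 libraries. Over the genes analysed, a 0 h library held 2645775 to 3875847 counts and a 0.5 h library 2708005 to 3397314. Levels are given as CPM, counts scaled to a library total of 1000000, and 1 count was worth 0.268 to 0.393 CPM. The 10 genes with the most counts took 11.2% to 12.5% of a library. All 48 listed muscle genes and 24 of 25 listed notochord genes had counts in these libraries. So did 45 of 46 listed genes of retina and lens and all 43 of liver, pancreas and gut. Having counts therefore does not tell tail tissue from other tissue. Markers of retina and lens summed to 895 to 1270.2 CPM at 0 h and 1109 to 1339 CPM at 0.5 h, and those of liver, pancreas and gut to 2201 to 3083 CPM and 2639 to 3096 CPM. Where these counts came from was not tested. Scaled with all 32 libraries, the replicates A that were left out stood at 1782 CPM (0 h) and 1979.8 CPM (0.5 h) for retina and lens, above the other 6 libraries, which ran from 901 to 1347 CPM.

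**Figure D2:**
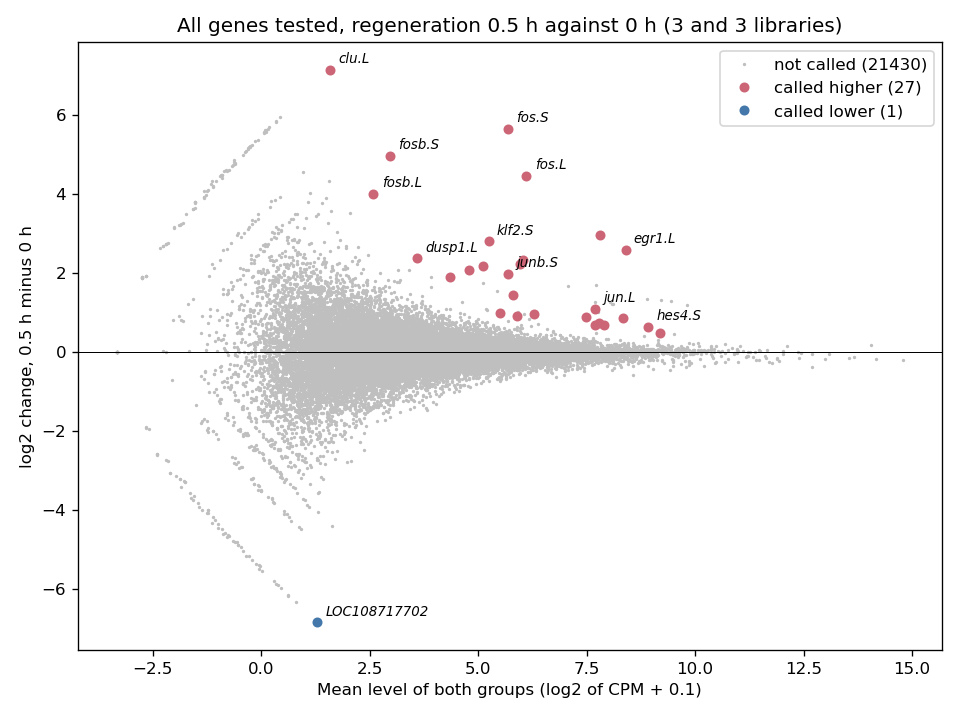
Log2 change at 0.5 h against the mean level of both groups (log2 of CPM plus 0.1) for all 21458 genes tested; red, the 27 genes called higher; blue, the 1 gene called lower; grey, genes not called. The genes called higher lie high in the cloud or above it at their level, but not all genes that lie as high were called. The uncalled nr4a1.L (log2 1.11) lies above the called ptgs2.L (log2 1.0) at a like level. Among genes with few counts changes as large as those of fosb.L were not called. The points of clu.L and LOC108717702 are fitted values of genes without counts in 1 group.

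The AP-1 genes rose. Of 21 tested genes of the AP-1 list 8 were higher and none lower, beside 0.126% of all genes called higher, and the median log2 change of the list was 1.1. The 8 are both homeologs of fos, fosb, jun and junb; in this allotetraploid frog .L and .S mark the gene copies of both ancestral genomes. The gene fos.L, for the Fos subunit that can act only with a partner, stood at 2.42, 10.5 and 5.5 CPM at 0 h and 114, 124 and 158 CPM at 0.5 h (log2 change 4.48 ± 0.49 SE, adjusted p = 3.68e-05). Its copy fos.S stood at 3.76, 1.44 and 0 CPM at 0 h and 118, 77.7 and 107 CPM at 0.5 h (log2 change 5.67 ± 0.69 SE, adjusted p = 0.000134). The 2 copies went from at most 10.5 CPM at 0 h to at least 77.7 CPM in every 0.5 h library. The related gene fosb.L stood at 1.07, 0.361 and 0.393 CPM at 0 h and 8.09, 16.1 and 9.31 CPM at 0.5 h (log2 change 4.01 ± 0.75 SE, adjusted p = 0.00175). For fosb.S the values were 1.07, 0 and 0 CPM at 0 h and 7.79, 24 and 13.2 CPM at 0.5 h (log2 change 4.98 ± 0.94 SE, adjusted p = 0.0164), with no count in 2 of the 0 h libraries. The call of fosb.S was lost in 4 of 6 omissions of a library (adjusted p up to 0.199) and that of fosb.L without 0 h C (adjusted p = 0.0594). With all 32 libraries 2 AP-1 genes were called, fos.L and jun.L, while fos.S (adjusted p = 0.0817), fosb.L (0.666) and fosb.S (0.788) were not.

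The jun and junb genes, whose products can also pair with themselves, had counts in every 0 h library and rose by a smaller log2 change than fos and fosb. The gene jun.L stood at 125, 132 and 139 CPM at 0 h and 341, 266 and 242 CPM at 0.5 h (log2 change 1.1 ± 0.13 SE, adjusted p = 5.06e-09). Its homeolog jun.S stood at 171, 179 and 196 CPM at 0 h and 292, 273 and 321 CPM at 0.5 h (log2 change 0.70 ± 0.12 SE, adjusted p = 5.76e-05). Each 0.5 h library lay above each 0 h library for both. The gene junb.L, for a Jun protein that often restrains Jun, stood at 11.5, 9.38 and 16.1 CPM at 0 h and 50.6, 48.8 and 68.7 CPM at 0.5 h (log2 change 2.19 ± 0.27 SE, adjusted p = 3.71e-08). Its homeolog junb.S rose alike in the 3 libraries, at 23.3, 19.1 and 19.2 CPM at 0 h and 82.4, 91.9 and 73.4 CPM at 0.5 h (log2 change 1.99 ± 0.24 SE, adjusted p = 7.32e-08). With all 32 libraries jun.S (adjusted p = 0.0922), junb.L (0.611) and junb.S (0.372) were not called. Other AP-1 genes of the list did not pass. The late-responding Fos relative fosl1.L was at 0.805, 0.361 and 0.785 CPM at 0 h and 1.8, 1.88 and 5.01 CPM at 0.5 h (log2 2.05 ± 0.67, adjusted p = 0.802), without overlap but at few counts. The genes fosl2.L (log2 -0.11 ± 0.25, adjusted p = 1), jund.S (log2 0.15 ± 0.29, adjusted p = 1) and atf3.L (log2 0.47 ± 0.41, adjusted p = 1) had overlapping groups. So did their homeologs fosl2.S (log2 0.04 ± 0.39), jund.L (log2 0.66 ± 0.68) and atf3.S (log2 1.46 ± 0.54), none of them called. The homeolog fosl1.S had no count at 0 h and 2, 4 and 5 counts at 0.5 h, without overlap and not called.

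Of zinc finger and nuclear receptor early factors 4 of 27 tested members were higher and none lower, beside 0.126% of all genes called higher. The list median was 0.25, and this list, like the others, was chosen with earlier results known. The gene of the zinc finger factor Egr1, a target of serum response factor, rose in both homeologs. Expression of egr1.L was 74.1, 116 and 98.6 CPM at 0 h and 593, 644 and 495 CPM at 0.5 h (log2 change 2.59 ± 0.19 SE, adjusted p = 7.36e-09). That of egr1.S was 44, 50.1 and 56.9 CPM at 0 h and 414, 429.9 and 341 CPM at 0.5 h (log2 change 2.98 ± 0.29 SE, adjusted p = 7.6e-06). All 0.5 h libraries stood several times above all 0 h libraries. The Krüppel-like factor gene klf2.S, known from endothelium as a gene induced by flow, had the smallest p of all genes, with 8.05, 9.38 and 11 CPM at 0 h and 74.3, 83.7 and 39.7 CPM at 0.5 h (log2 change 2.81 ± 0.30 SE, adjusted p = 1.31e-10), and 0.5 h D was the lowest of the 3. Its homeolog klf2.L, at 12.6, 6.13 and 4.32 CPM at 0 h and 12.3, 15 and 20 CPM at 0.5 h, overlapped and was not called (log2 0.99 ± 0.38, adjusted p = 1). The orphan nuclear receptor gene nr4a1.S stood at 8.59, 12.3 and 11 CPM at 0 h and 51.2, 34.5 and 48.3 CPM at 0.5 h (log2 change 2.09 ± 0.30 SE, adjusted p = 1.1e-05), a call lost with all 32 libraries (adjusted p = 0.52). For nr4a1.L the groups did not overlap either, at 28.7, 20.9 and 18.8 CPM at 0 h and 59, 49.9 and 39.7 CPM at 0.5 h, but it was not called (log2 1.11 ± 0.27, adjusted p = 0.0881).

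Family members of these factors differed in what they showed. The gene egr2.L stood at 3.49, 0 and 8.64 CPM at 0 h and 20.1, 17.6 and 12.9 CPM at 0.5 h without overlap and was not called (log2 2.08 ± 0.60, adjusted p = 0.45). The gene egr3.L was at 0, 2.52 and 6.28 CPM at 0 h and 0.30, 0 and 0 CPM at 0.5 h, a level of a few counts, with overlapping groups (adjusted p = 1). Krüppel-like genes klf4.L (log2 0.53 ± 0.42, adjusted p = 1) and klf6.L (log2 0.38 ± 0.38, adjusted p = 1) overlapped between the times.

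Among other early transcription regulators 6 of 51 tested members rose and none fell (list median 0.20), beside 0.126% of all genes called higher. The 6 were both homeologs of ier2, cebpd and hes4. The immediate early response gene ier2.L stood at 19.9, 25.2 and 18.8 CPM at 0 h and 105, 104 and 117 CPM at 0.5 h (log2 change 2.35 ± 0.34 SE, adjusted p = 0.000571) and ier2.S at 7.78, 11.9 and 5.89 CPM at 0 h and 30.9, 29.6 and 35.4 CPM at 0.5 h (log2 change 1.9 ± 0.32 SE, adjusted p = 5.76e-05). Neither had overlapping groups. The gene of C/EBP delta, a leucine zipper factor of acute phase responses, was expressed at 0 h and rose by a log2 change under 1 in both copies. It stood for cebpd.S at 123, 117 and 132 CPM at 0 h and 226, 243 and 225 CPM at 0.5 h (log2 change 0.90 ± 0.14 SE, adjusted p = 3.39e-05) and for cebpd.L at 151, 158 and 168 CPM at 0 h and 259, 251 and 253 CPM at 0.5 h (log2 change 0.68 ± 0.12 SE, adjusted p = 8.48e-05). With all 32 libraries ier2.L (adjusted p = 0.0724), cebpd.S (1) and cebpd.L (1) were not called.

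The gene hes4 encodes a Hairy-type repressor, known in Xenopus as hairy2 and as a Notch-responsive gene. Its copy hes4.S stood at 368, 359 and 413 CPM at 0 h and 624, 605 and 542 CPM at 0.5 h (log2 change 0.64 ± 0.11 SE, adjusted p = 4.25e-05) and hes4.L at 462, 439.6 and 547 CPM at 0 h and 612, 761 and 659 CPM at 0.5 h (log2 change 0.49 ± 0.10 SE, adjusted p = 0.00757), both small changes without overlap. The call of hes4.L was lost in 3 of 6 omissions (adjusted p up to 0.293), in the fit of the 6 libraries alone (adjusted p = 0.068) and with all 32 (adjusted p = 0.873). The proto-oncogene myc, an early gene of growth-stimulated cells, did not pass, with myc.L at 43.2, 60.6 and 45.5 CPM at 0 h and 45.2, 54.8 and 51.9 CPM at 0.5 h (log2 0.03 ± 0.20, adjusted p = 1) and myc.S at a log2 change of 0.24 ± 0.21.

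A few genes for proteins that restrain kinase and G protein signalling also rose. Of 49 tested members 4 were higher and none lower, beside 0.126% of all genes called higher, and the list median was 0.09. The phosphatase gene dusp1.L, whose product inactivates MAP kinases, stood at 4.56, 2.16 and 4.71 CPM at 0 h and 24.9, 13.1 and 22.2 CPM at 0.5 h (log2 change 2.38 ± 0.45 SE, adjusted p = 0.000753), a call lost without 0 h C (adjusted p = 0.0594). Its homeolog dusp1.S, at 6.44, 7.21 and 9.03 CPM at 0 h and 16.8, 22.9 and 13.6 CPM at 0.5 h, did not overlap but was not called (log2 1.24 ± 0.37, adjusted p = 0.446). The salt-inducible kinase gene sik1.S, whose product restrains CREB coactivators, stood at 18.8, 17.3 and 29.8 CPM at 0 h and 97.1, 132 and 77.7 CPM at 0.5 h (log2 change 2.23 ± 0.30 SE, adjusted p = 0.000198). The gene rgs2 encodes an accelerator of GTP hydrolysis by Gq. Its copies stood at 37.6, 36.1 and 49.5 CPM at 0 h and 79.4, 73.2 and 78.4 CPM at 0.5 h for rgs2.L (log2 change 0.91 ± 0.18 SE, adjusted p = 0.00288) and 20.9, 49.8 and 20 CPM at 0 h and 109, 61.1 and 75.9 CPM at 0.5 h for rgs2.S (log2 change 1.45 ± 0.31 SE, adjusted p = 0.0462). The calls of rgs2.L and rgs2.S were lost in 2 and 4 of 6 omissions (adjusted p up to 0.119 and 0.417), and both with all 32 libraries (adjusted p = 1 and 0.788). The ERK phosphatase gene dusp6 had overlapping groups (dusp6.L, log2 0.24 ± 0.41, adjusted p = 1).

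Genes of mRNA decay and growth arrest had 2 of 36 tested members higher and none lower, beside 0.126% of all genes called higher. The list median was 0.15. Both called genes encode zinc finger proteins that bind AU-rich elements and speed the decay of early transcripts. The gene zfp36.S, for tristetraprolin, stood at 147, 156 and 190.4 CPM at 0 h and 295, 299 and 227 CPM at 0.5 h (log2 change 0.74 ± 0.12 SE, adjusted p = 3.39e-05). Its homeolog zfp36.L, at 176, 171 and 174 CPM at 0 h and 264, 263 and 208 CPM at 0.5 h, was not called (log2 0.49 ± 0.12, adjusted p = 0.0883). The relative zfp36l2.L stood at 247, 234 and 204 CPM at 0 h and 413, 473 and 364 CPM at 0.5 h (log2 change 0.87 ± 0.13 SE, adjusted p = 1.1e-05), a call lost with all 32 libraries (adjusted p = 0.995), and zfp36l2.S was without overlap and not called (log2 0.41 ± 0.11, adjusted p = 0.234). The antiproliferative gene btg2.S was at 6.44, 8.29 and 7.07 CPM at 0 h and 22.8, 21 and 24.7 CPM at 0.5 h and missed the threshold (log2 1.65 ± 0.41, adjusted p = 0.0883).

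Of genes for secreted or secretion-related products 3 of 35 tested members rose and none fell (median 0.33), beside 0.126% of all genes called higher. The matricellular protein gene ccn1.L, also known as Cyr61, stood at 55.8, 55.2 and 47.1 CPM at 0 h and 111, 87.4 and 110.3 CPM at 0.5 h (log2 change 0.96 ± 0.18 SE, adjusted p = 0.000589), a call lost with all 32 libraries (adjusted p = 0.378), and ccn1.S was not called (log2 0.83 ± 0.30, adjusted p = 1). Its relative ccn2.L, connective tissue growth factor, overlapped and had a negative value (log2 -0.34 ± 0.24, adjusted p = 1). The inducible prostaglandin synthase gene ptgs2.L stood at 28.4, 29.6 and 32.6 CPM at 0 h and 51.8, 63.4 and 65.9 CPM at 0.5 h (log2 change 1.0 ± 0.22 SE, adjusted p = 0.0182), a call lost in 5 of 6 omissions (adjusted p up to 0.182) and with all 32 libraries (adjusted p = 1). Its copy ptgs2.S was without overlap and not called (log2 0.66 ± 0.19, adjusted p = 0.299).

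The gene of clusterin, clu.L, a secreted chaperone gene induced in stressed and damaged tissue, had no count in any of the 3 libraries at 0 h and 21, 16 and 14 counts at 0.5 h, which is 6.29, 6.00 and 5.01 CPM (adjusted p = 4.18e-06). Against a floor of 3 counts over the 0 h group, it was at least 17.5-fold higher in B, C and D. That bound does not cover replicate A. Scaled with all 32 libraries, clu.L stood at 0.992 CPM in 0 h A and 4.45 CPM in 0.5 h A. In B, C and D its level at 0.5 h was low but even across the libraries, and the call held in all 13 alternative settings.

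The 27 genes came from 18 symbols. In 9 of the 18 both homeologs were called, in 7 only 1 homeolog was called although the other was tested, and for clu and sik1 no second copy was tested. In all 7 the copy that was not called had a positive log2 change, from 0.41 for zfp36l2.S to 1.24 for dusp1.S. The widest gap in log2 change was that of klf2, with 2.81 ± 0.30 for klf2.S and 0.99 ± 0.38 for klf2.L. The difference between homeologs was not tested. The handling of reads that fit both copies is not stated in the labels, which leaves the values of single copies uncertain.

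**Figure D3:**
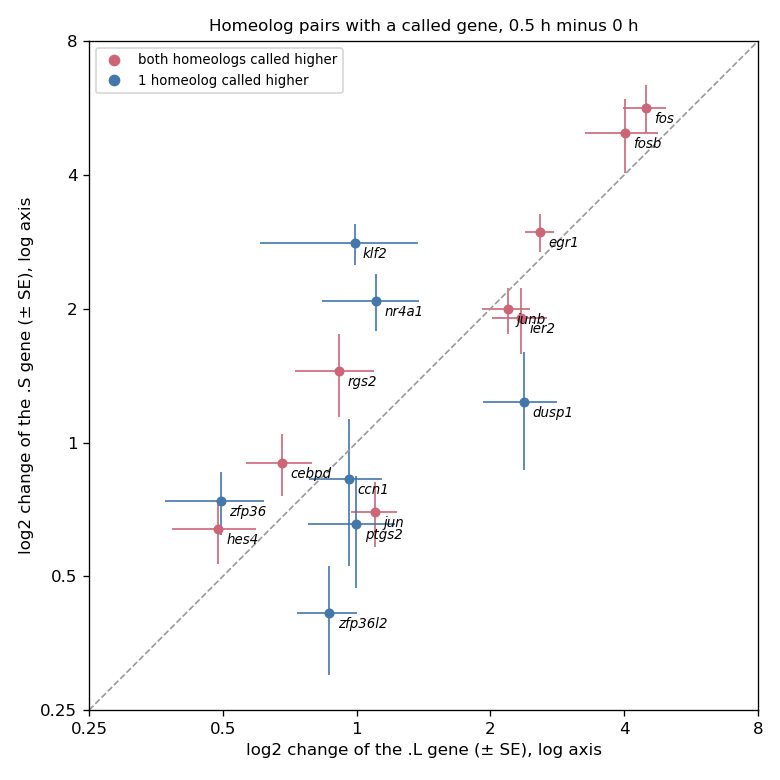
Log2 change (0.5 h minus 0 h, ± SE, log axes) of the .S copy against the .L copy for the 16 symbols with a called gene and both copies tested; the dashed line marks equal change. Red, both copies called higher (9); blue, 1 copy called higher (7), with klf2 and nr4a1 above the line and dusp1 below it.

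The single gene called lower was LOC108717702, a gene model without a name in the tables. It had 14, 23 and 5 counts at 0 h and none at 0.5 h, at least 13.6-fold lower against a floor of 3 counts over the 0.5 h group (adjusted p = 0.0394). The call was lost in 5 of 6 omissions (adjusted p up to 0.31) and with all 32 libraries (adjusted p = 1), and its means at 6 and 72 h were 3.29 ± 1.88 and 5.49 ± 4.02 CPM.

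Other classes of injury genes had at most 1 called member at this time. Of 33 tested genes of NF-kB signalling and inflammatory mediators, 1 was higher (median 0.25), beside 0.126% of all genes called higher. It was ptgs2.L, which is also counted above. The NF-kB inhibitor gene nfkbia.L was at 4.29, 8.66 and 5.1 CPM at 0 h and 3.9, 3.75 and 1.79 CPM at 0.5 h, lower without overlap and not called (log2 -0.91 ± 0.61, adjusted p = 1). The cytokine feedback gene socs3.S was at 1.07, 5.41 and 1.18 CPM at 0 h and 14.1, 3.75 and 6.44 CPM at 0.5 h (log2 1.7 ± 0.62, adjusted p = 1). Their homeologs nfkbia.S (log2 -0.01 ± 0.83) and socs3.L (log2 0.92 ± 0.73) had overlapping groups and were not called. None of 50 heat shock and protein folding genes was called (median -0.09). The Hsp70 family chaperone gene hspa1l.S stood at 834, 918 and 799 CPM at 0 h and 875, 784 and 968 CPM at 0.5 h, with wholly overlapping groups (log2 0.04 ± 0.10, adjusted p = 1). None was called among 36 genes of oxidant production and defence (median -0.03), 52 of matrix proteases and wound matrix (median 0), or 33 cytoskeletal targets of serum response factor and its MRTF partners (median 0.01).

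Signalling and housekeeping lists also had no called member, where 0.126% of all genes were called higher. This held for 57 genes of TGF-beta, activin and BMP signalling (median 0.13), 80 of Wnt, FGF, Notch and Hedgehog signalling (0.03), 37 posterior patterning genes (0.12) and 66 cell cycle genes (0.11). It held as well for 54 genes of glycolysis and hypoxia (-0.10), 72 of the respiratory chain (-0.14) and 109 of cytosolic ribosomal proteins (0.05). These lists and the injury lists above were chosen with earlier results known, so a lack of called members in them is no finding. A gene that was not called is not thereby shown to be unchanged. With 3 libraries a group, a rise of a gene with few counts could be missed.

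**Figure D4:**
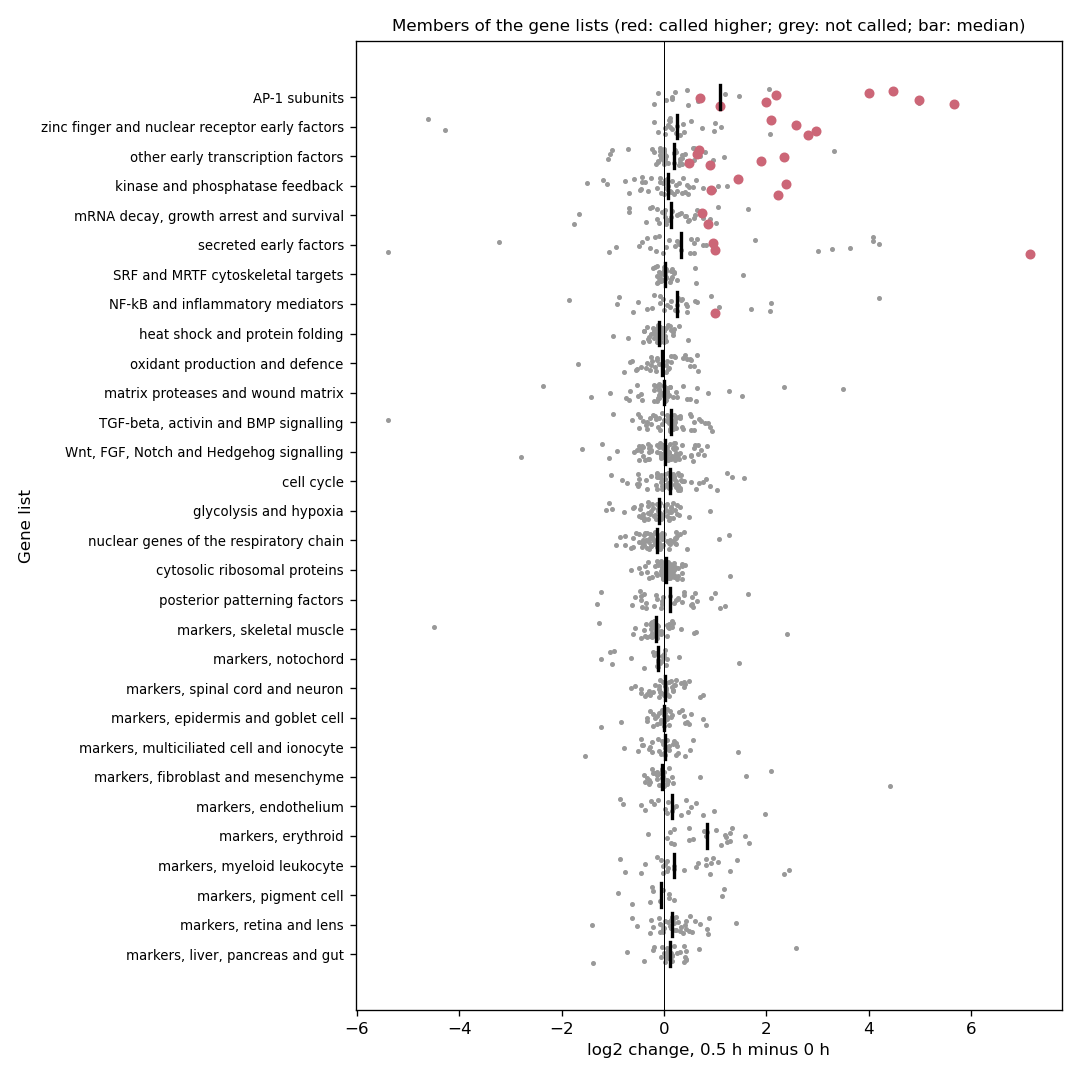
Log2 change (0.5 h minus 0 h) of every tested member of the 30 gene lists, 1 row per list; red, called higher; grey, not called; black bar, median. Red points stand in the early response lists and, through ptgs2.L, in the NF-kB list, and the AP-1 median lies at 1.1.

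Among markers of cell types no member was called, beside 0.126% of all genes called higher. Some summed levels differed between the times in B, C and D. Skeletal muscle markers summed to 98541 to 99791 CPM at 0 h and 82107 to 91845 CPM at 0.5 h, so that each 0.5 h library lay below each 0 h library. Of 44 tested members 32 had a negative log2 change and 15 were lower without overlap, as 5.48% of all genes were (median -0.16). All 48 listed muscle genes had counts. Erythroid markers were higher in 21 of 22 tested members by sign (median 0.83), where 10654 of all 21458 genes tested had a positive log2 change. Of the 22, 3 were higher and 1 lower without overlap, beside 4.88% and 5.48% of all genes. The erythroid sums overlapped, at 1693 to 3323 CPM at 0 h and 2736 to 6670.1 CPM at 0.5 h, the highest in 0.5 h D. All 26 listed erythroid genes had counts. In the left-out replicate A, scaled with all 32 libraries, muscle markers summed to 70100.1 CPM at 0 h and 71035 CPM at 0.5 h. Erythroid markers summed there to 3178 and 2212 CPM, so neither shift was seen in A. The part of the shifts of B, C and D in the changes of early genes was not tested. In pooled bulk tails, fewer cells of a type and less RNA per cell cannot be told apart.

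The other marker lists had medians from -0.12 to 0.20. These were -0.12 for notochord (23 tested), 0.03 for spinal cord and neurons (40), 0.00 for epidermis and goblet cells (37) and 0.01 for multiciliated cells and ionocytes (32). Fibroblasts and mesenchyme had -0.04 (35), endothelium 0.15 (21), myeloid leukocytes 0.20 (27) and pigment cells -0.05 (12). Myeloid markers summed to 459 to 547 CPM at 0 h and 509.7 to 599 CPM at 0.5 h, overlapping. Retina and lens had a median of 0.17 (42) and liver, pancreas and gut 0.11 (31).

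The called genes were also measured at 6 and 72 h of the regeneration period. No group held uncut tails kept for those times, so effects of amputation and of elapsed time cannot be told apart. The later times are given as levels, since the comparisons of 6 and 72 h with 0 h share the 0 h libraries used here. Values are mean ± SD of 3 libraries at 0, 0.5 and 6 h and 4 at 72 h. The replicates were B, C and D at 0 and 0.5 h, A, C and D at 6 h, and A to D at 72 h. Replicate A was thus part of the later times only. Expression of fos.L stood at 6.12 ± 4.06 CPM at 0 h, 132 ± 22.9 at 0.5 h, 18.2 ± 5.84 at 6 h and 4.87 ± 2.79 at 72 h. That of fos.S stood at 1.73 ± 1.9 CPM at 0 h, 101 ± 20.8 at 0.5 h, 21.2 ± 7.76 at 6 h and 4.33 ± 2.73 at 72 h. Both copies were far below their 0.5 h level at 6 h, yet each 6 h library lay above each 0 h library for both. Expression of egr1.L also stood near its starting level at 72 h, at 96.1 ± 21 CPM at 0 h, 577 ± 75.9 at 0.5 h, 176 ± 5.88 at 6 h and 112 ± 27.8 at 72 h. The gene klf2.S followed a like course, at 9.47 ± 1.47 CPM at 0 h, 65.9 ± 23.1 at 0.5 h, 15.8 ± 4.84 at 6 h and 12 ± 3.99 at 72 h. The gene fosb.L was about as high at 6 h as at 0.5 h, at 0.609 ± 0.403 CPM at 0 h, 11.2 ± 4.33 at 0.5 h, 11 ± 1.4 at 6 h and 0.986 ± 1.18 at 72 h. The gene junb.L stood at 12.3 ± 3.43 CPM at 0 h, 56 ± 11 at 0.5 h, 47 ± 16.2 at 6 h and 26.5 ± 3.84 at 72 h, and nr4a1.S at 10.6 ± 1.87 CPM at 0 h, 44.7 ± 8.94 at 0.5 h, 35.9 ± 10.3 at 6 h and 24 ± 8.24 at 72 h.

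Some genes stood as high or higher later. The mean of fosb.S was highest at 6 h, at 0.358 ± 0.620 CPM at 0 h, 15 ± 8.25 at 0.5 h, 18.8 ± 2.53 at 6 h and 0.792 ± 1.11 at 72 h. The mean of cebpd.L was no lower later, at 159 ± 8.97 CPM at 0 h, 254 ± 4.19 at 0.5 h, 280.3 ± 23.7 at 6 h and 265 ± 20.6 at 72 h. Its homeolog cebpd.S stood at 124 ± 7.57 CPM at 0 h, 231 ± 10.4 at 0.5 h, 173 ± 28.1 at 6 h and 134 ± 26.5 at 72 h. The gene rgs2.L was about as high later as at 0.5 h, at 41 ± 7.35 CPM at 0 h, 77 ± 3.36 at 0.5 h, 74.9 ± 10.8 at 6 h and 74.3 ± 13.7 at 72 h. Clusterin was highest last, with clu.L at 0 ± 0 CPM at 0 h, 5.77 ± 0.672 at 0.5 h, 4.91 ± 1.47 at 6 h and 17 ± 5.8 at 72 h. By contrast, the feedback gene dusp1.L stood at 3.81 ± 1.43 CPM at 0 h, 20.1 ± 6.15 at 0.5 h, 7.44 ± 4.59 at 6 h and 7.14 ± 1.12 at 72 h and ccn1.L at 52.7 ± 4.85 CPM at 0 h, 103 ± 13.4 at 0.5 h, 56.8 ± 11.8 at 6 h and 69.4 ± 9.13 at 72 h, with the 0.5 h mean as the highest of the 4.

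**Figure D5:**
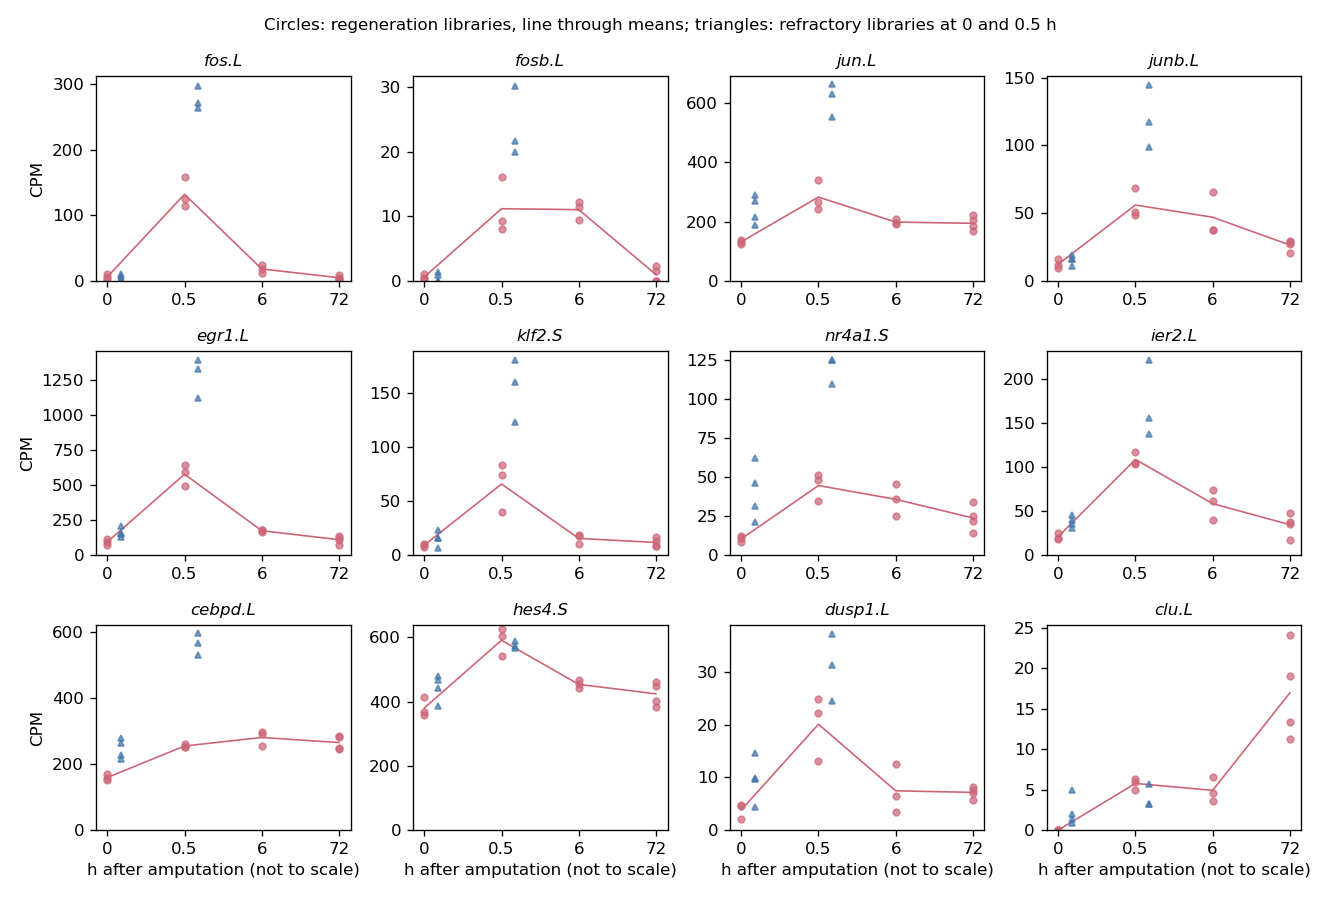
Expression (CPM) of 12 of the genes called higher, 1 panel per gene, in each regeneration library at 0, 0.5, 6 and 72 h after amputation (red circles, line through the means, times evenly spaced) and in each refractory library at 0 and 0.5 h (blue triangles). Libraries that the authors left out are not shown. Most panels peak at 0.5 h, while cebpd.L stays level after 0.5 h and clu.L is highest at 72 h.

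Refractory tails at 0.5 h, compared with their own 0 h libraries (3 against 4), called 24 of the 27 genes higher, where 0.298% of all genes, 64 in number, were called higher; the 24 are 88.9% of the first list and 37.5% of the second. All 27 had a positive log2 change there, and clu.L, hes4.S and rgs2.S were not called. Whether the rise differed between the periods was tested as the difference of the changes. The count of genes called as different between the periods at 0.5 h was 0 of 21458 in edgeR, with 1024 (4.77%) at an unadjusted p under 0.05, and 0 in DESeq2, with 1257 at an unadjusted p under 0.05. It was 4 without a filter on low counts and 5 without 0.5 h D. Of the 27 genes 7 had an unadjusted p under 0.05, and in 6 of those the refractory rise was the larger. The smallest p of those 6 was that of jun.S, with log2 changes of 0.70 ± 0.12 here and 1.38 ± 0.11 in refractory tails (difference 0.68 ± 0.16, adjusted p = 0.193). As levels, fos.L stood at 5.99 ± 4.17 CPM in refractory tails at 0 h and 277 ± 18.2 at 0.5 h, and egr1.L at 164 ± 31.6 and 1278 ± 139.5 CPM. The tails described here had 6.12 ± 4.06 and 132 ± 22.9 CPM of fos.L, and 96.1 ± 21 and 577 ± 75.9 CPM of egr1.L. Neither gene was called as different in edgeR's test. The difference of the changes was 1.11 ± 0.70 for fos.L (unadjusted p = 0.131) and 0.37 ± 0.25 for egr1.L (unadjusted p = 0.151). In the opposite direction stood clu.L, which was already present in refractory tails at 0 h, at 2.3 ± 1.86 CPM, and at 4.03 ± 1.47 CPM at 0.5 h (adjusted p of the difference = 0.0608).

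Replicate A, left out of the comparison, showed little of the response. Scaled with all 32 libraries, its 0.5 h library held 7.31 CPM of fos.L, 150.4 CPM of egr1.L and no count of fos.S, fosb.L or fosb.S. The muscle markers summed to 70100.1 CPM in 0 h A and 71035 CPM in 0.5 h A, where the other 6 libraries ran from 82592 to 100381 CPM. The 0 h library A held 2.98 CPM of fos.L and 149 CPM of egr1.L. Of the 27 genes, 1 (zfp36.S) stood in 0.5 h A within or above the range of the other 0.5 h libraries. Of the 13 genes called in the fit of 32 libraries 11 were among the 28. In that fit the members called higher were 3 of the zinc finger and nuclear receptor list, 2 each of the AP-1, other early transcription factor and kinase feedback lists, 1 each of the mRNA decay and secreted lists and 0 of the NF-kB list. Leaving each of the 6 compared libraries in turn out of the fit of 27 libraries gave 21 to 28 called genes. Of the 28 genes, 20 held their call in all 6 omissions.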

How the data were processed

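The deposited files were 4 tables of 32 RNA sequencing libraries of Xenopus laevis tails, a raw and a normalized table per period. The deposited raw tables hold whole-number read counts per gene. The normalized tables hold a signal that, from the values, equals the authors' raw counts divided by 1 size factor per library; it served only to see which 27 libraries the authors kept. Per the labels' protocols, 100 ng of total RNA per library was sequenced as paired reads of 76 bases. The submitters' processing notes name DESeq2 1.32.0 and R 4.1.0 beside STAR 2.7.9a and HTSeq 0.6.1p1. Build, annotation and settings are not stated there, so no positions are reported.

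The 27467 genes listed in both raw tables were analysed with edgeR 4.0.16 under R 4.3.3. TMM scaling was used, and filterByExpr by group kept 21458 genes. A robust quasi-likelihood model with 8 groups of period and time was fitted to the 27 libraries (19 residual degrees of freedom, common biological coefficient of variation 0.34). All contrasts, two-sided, came from it, with Benjamini-Hochberg adjustment over all genes and a threshold of 0.05. SE are the absolute log2 change divided by the square root of the F statistic of its test, and SD are over libraries. Floors of 3 counts cover counting error only. The labels describe biological repeats but not how they were separated, so p-values measure the spread between these libraries. The fit was tested on simulated data with changes set only in better expressed genes, which does not cover calls at few counts.

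The libraries, the 30 gene lists and the named genes were chosen with earlier results of these data known, so lists carry no test. Symbols were matched to list entries after removing .L or .S, each copy counting as 1 member. List medians moved by at most 0.0238 when genes at 0 in a group were set to their bound. Named were all called genes, their homeologs, genes of a panel of 30 symbols, and the 5 higher and 5 lower genes of smallest p among those not called, with at least 5 CPM in a group and no overlap; LOC108717702 was added after its values were seen. Of 29303 identifiers 29300 match a RefSeq symbol. Alternatives were another scaling, DESeq2 1.42.0, no filter, fits of 6, 13 or 32 libraries, a replicate block, and each of the 6 libraries left out.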

Additional observations from a re-analysis of the deposited data

Results flagged for a closer look

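The 0.5 h library of replicate A was in no comparison of the main fit and entered only the fit of all 32 libraries. In this library, 10 of the 27 genes called higher stood above all 4 libraries of 0 h, which is why it is named here. The 10 were clu.L, dusp1.L, egr1.L, hes4.S, ier2.L, jun.L, jun.S, klf2.S, sik1.S and zfp36.S. The share of all genes that stood so was not counted. Among the 4 libraries were B, C and D, whose 0 h values also entered the calls, so the count is no independent support. Only 1 of the 27 genes reached the lowest of the other 0.5 h libraries. The gene klf2.S stood at 19.4 CPM in that library against at most 11.1 CPM at 0 h, and clu.L at 4.45 against at most 0.992 CPM. The gene egr1.L, at 150.4 against at most 149 CPM, was hardly above. So were jun.S, at 264.9 against at most 262.8 CPM, and hes4.S, at 458.2 against at most 445.6 CPM.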

How the results depend on the processing

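The count of 28 called genes was 27 with relative log expression factors, 31 with DESeq2 (all higher), 38 without a filter on low counts, 29 in a fit of the 6 libraries and 30 in a fit of the 13 regeneration libraries. It was 13 with all 32 libraries, and 21 to 28 when each of the 6 libraries was left out. With the replicate block it was 28, of which 26 were among the 28. Same-letter libraries had correlations of deviations of 0.0106, -0.00725 and -0.0260, so no pairing by letter was seen among B, C and D. Correlations over all genes cannot exclude an effect shared by libraries of the same letter. The block ended the calls of fosb.S and LOC108717702 and added nr4a1.L and aldoa.L. In the test of the difference between the periods, 0 genes were called in most settings, 4 without a filter and 0 to 5 over the omissions (5 without 0.5 h D); this test cannot be made in fits without refractory libraries. LOC108717702 had no value in DESeq2 or in the fit of the 6 libraries. No named gene reversed direction with a call. Of the 28 calls 10 held in all 13 settings: klf2.S, jun.L, egr1.L, egr1.S, clu.L, zfp36.S, fos.L, hes4.S, ier2.S and sik1.S. Depth limits genes near 1 CPM, where a library holds about 3 counts.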

Other observations

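Of genes that were not called, those with the smallest p and no overlap included both copies of ch25h, the gene of cholesterol 25-hydroxylase, an enzyme of oxysterol synthesis induced in immune responses. Expression of ch25h.L was 0.268, 1.08 and 1.18 CPM at 0 h and 6.89, 7.13 and 3.94 CPM at 0.5 h (log2 change 2.85 ± 0.69 SE, adjusted p = 0.0594) and that of ch25h.S 0.537, 1.8 and 2.75 CPM at 0 h and 8.99, 6.0 and 12.2 CPM at 0.5 h (log2 change 2.47 ± 0.66 SE, adjusted p = 0.212). DESeq2 called ch25h.L (adjusted p = 0.0373), and without a filter on low counts ch25h.L (0.0276) and ch25h.S (0.02) were called, whereas the fits of 6 and 13 libraries gave ch25h.L adjusted p of 0.727 and 0.719. The protease-activated receptor gene f2rl1.S stood at 0.537, 0.721 and 1.96 CPM at 0 h and 7.49, 6.75 and 5.37 CPM at 0.5 h (log2 change 2.64 ± 0.68 SE, adjusted p = 0.126), the transporter gene abcc3.L at 12.6, 11.2 and 14.5 CPM at 0 h and 20.4, 27 and 35.4 CPM at 0.5 h (log2 change 1.11 ± 0.30 SE, adjusted p = 0.212), and pmepa1.S, a TGF-beta target gene, at 15.6, 13.7 and 11.8 CPM at 0 h and 23.4, 28.5 and 27.2 CPM at 0.5 h (log2 change 0.93 ± 0.26 SE, adjusted p = 0.279). With all 32 libraries f2rl1.S and abcc3.L were called (adjusted p = 0.0477 and 0.0209), and f2rl1.S also without a filter (0.0438); in the fit of the 6 libraries they had adjusted p of 0.765 and 0.497.

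On the lower side stood the aldolase gene aldoa.L, an enzyme of glycolysis abundant in muscle, at 7796, 7212 and 7423 CPM at 0 h and 5465, 5313 and 6382 CPM at 0.5 h (log2 change -0.39 ± 0.10 SE, adjusted p = 0.177). It was called in the fit of the 6 libraries (adjusted p = 0.037), with the replicate block (adjusted p = 0.00309) and without a filter (adjusted p = 9.6e-05), but had an adjusted p of 1 with all 32 libraries. The gene slc25a5.S, for an ADP/ATP carrier, was at 616, 592 and 596 CPM at 0 h and 430.3, 411 and 506 CPM at 0.5 h (log2 change -0.42 ± 0.12 SE, adjusted p = 0.349), nnt.S, for the mitochondrial transhydrogenase, at 136, 149 and 122 CPM at 0 h and 116, 76.5 and 68.7 CPM at 0.5 h (log2 change -0.64 ± 0.19 SE, adjusted p = 0.45), arnt.L, for a partner of hypoxia-inducible factors, at 17.4, 22 and 26.7 CPM at 0 h and 10.8, 6.38 and 10 CPM at 0.5 h (log2 change -1.26 ± 0.34 SE, adjusted p = 0.212), and larp4.S, for an RNA-binding protein, at 19.3, 25.2 and 16.9 CPM at 0 h and 5.99, 9.0 and 7.16 CPM at 0.5 h (log2 change -1.47 ± 0.43 SE, adjusted p = 0.376). In the list of glycolysis and hypoxia 11 of 54 members were lower and none higher without overlap, beside 5.48% and 4.88% of all genes. The summed muscle markers were lower in the same libraries; the part of muscle RNA in these values was not tested.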
